A study of Mus musculus with 36 samples.

Results

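The transcriptome of mouse cortical neurons after 10 h in brain-derived neurotrophic factor (BDNF) was read from 8 RNA-seq libraries: the 2 BDNF 10 h libraries, A and B, and the 6 unstimulated controls. They are 8 of the 18 RNA libraries and 8 of the 36 samples of the series, and were chosen by stimulus and time alone. All cells were primary cortical neurons of CD-1 mice, prepared at embryonic day 15 from pooled tissue of several embryos and kept for 7 days in vitro. Every culture was silenced with 1 µM TTX, which blocks voltage-gated sodium channels, together with 100 µM of the NMDA receptor antagonist AP-5. Stimulated cultures were silenced for 2 h and then received 10 ng/ml BDNF for 1, 6 or 10 h, or 55 mM KCl for the same times. The controls received both drugs and no stimulus for 3, 8 or 12 h, 2 libraries at each time, and stand here as 1 group of 6. BDNF at 6 h, BDNF at 1 h and KCl at 10 h, each with 2 libraries, served for direct comparisons, and 18 ATAC-seq libraries of open chromatin from the same design gave a separate readout.

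BDNF is a secreted neurotrophin that binds the receptor tyrosine kinase TrkB, encoded by Ntrk2, and signals through the MAP kinase, PI3 kinase and phospholipase C branches. In cortex it is known for its roles in neuronal survival, dendrite growth and synaptic plasticity. KCl depolarizes the membrane and lets calcium in through voltage-gated channels, so the pair of stimuli reach the nucleus by partly different routes.

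The 2 BDNF 10 h libraries held 10.7 M and 15.8 M (mega) reads in genes and the 6 controls 9.75 M to 36.7 M, with control 1 h A well above the rest. Library size was scaled out, and all levels below are normalized counts. The neuron markers were abundant in every library, with a summed level of 69945 to 78891 in the controls and of 77491 and 73909 with BDNF. Other cells were present too: 15 astrocyte markers summed to 24919 to 31184 in the controls and to 23314 and 23537 with BDNF, and 13 microglia markers to 237 to 351 against 238 and 263. In these bulk samples fewer cells of a type and less RNA per cell cannot be told apart.

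After 10 h of BDNF, 3424 genes were higher and 3159 lower than in the controls at an adjusted p below 0.1, which was 21.1% and 19.5% of the 16209 genes tested. Most of these changes were small, with a median of 0.39 on the log2 scale regardless of sign. At least 2-fold changes were far fewer: 210 genes rose (1.3%) and 223 fell (1.38%). Neither BDNF library overlapped the 6 controls for 206 of the 210 and for 203 of the 223. These genes were picked by their change in the same libraries, so their separation is largely built in and is a description. Without BDNF library B the call count fell from 6583 to 3642, while the 2-fold counts were 220 and 248.

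Among protein-coding genes with a mean of at least 100 normalized counts in the higher group, the 12 largest rises joined secreted peptides and their partners to transcription factors and signaling proteins of the early response. Gal (chr19:3409915-3414544, mm10, minus strand), the precursor of the neuropeptide galanin, had 0 to 1.96 normalized counts in the controls, with a median of 1.07, and 138 and 147 in the BDNF libraries. Its fitted change was 6.25 ± 0.41 on the log2 scale (SE, adjusted p = 2.1e-10), and with KCl at 10 h it was at 1.22 and 2.18. Gal was thus near the detection limit in every control and well above it in both BDNF libraries.

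Vgf (chr5:137026392-137033351), a neurotrophin-inducible secretory granule protein and peptide precursor, stood at 251 to 481 in the controls (median 346) and at 9935 and 9743 with BDNF. The change was 4.81 ± 0.29 (adjusted p = 2.2e-07). Here KCl gave 7497 and 5672, and the direct test between the stimuli did not pass (log2 difference 0.59 ± 0.36, adjusted p = 0.22). Both stimuli therefore left Vgf far above every control, and the difference between them was less than 2 of its standard errors.

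Egr2, a zinc finger transcription factor of the early response, had 8.3 to 15.6 in the controls (median 11.5) and 302 and 366 with BDNF (4.73 ± 0.18, adjusted p = 1.5e-14). Arc, a capsid-like protein that regulates AMPA receptor endocytosis, had 25.1 to 39.4 (median 34.2) against 621 and 596 (4.18 ± 0.15). Egr1, the relative of Egr2 often used as a marker of active neurons, had 194 to 247 (median 225) against 2514 and 2159 (3.38 ± 0.09). The groups did not overlap for any of the 3 genes, which the rule for choosing them required. After 10 h of KCl, Egr1 stood at 197 and 175 and Arc at 73.3 and 65.3, so that BDNF exceeded KCl by 3.64 ± 0.11 for Egr1 (adjusted p = 1.6e-15) and by 3.12 ± 0.19 for Arc (adjusted p = 4.9e-11).

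The other genes among these rises had log2 changes of 2.70 to 3.73. They were Arhgap36, an inhibitor of protein kinase A; Crhbp, which binds and neutralizes corticotropin-releasing hormone; Col6a5, a collagen VI chain; Rasl11a, a small GTPase; Synj2, an inositol phosphatase of vesicle recycling; and Dusp6 and Spry4, feedback inhibitors of MAP kinase signaling. Crhbp rose from 15.4 to 25.2 in the controls (median 19.2) to 234 and 208, and Col6a5 from 9.87 to 22.5 (median 13.3) to 155 and 145. Col6a5 had 13.7 and 19.8 at 1 h of BDNF and 177 and 172 at 6 h, a late rise that KCl did not share at 10 h (8.56 and 15.2).

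By the same rule, the 12 largest falls were smaller than the largest rises and gathered signaling proteins, transporters and channels. Wnt4 (chr4:137277489-137299726), a secreted Wnt ligand, fell from 109.6 to 142 in the controls (median 125) to 31.6 and 22.7 (log2 change -2.17 ± 0.17, adjusted p = 3.2e-09). Ptprk, a receptor tyrosine phosphatase of cell contacts, went from 1167 to 1279.9 (median 1221) to 439.7 and 439 (-1.47 ± 0.07). Kcnq3, a subunit of the M-current potassium channel that restrains repetitive firing, went from 1036 to 1256 (median 1114) to 458 and 369 (-1.44 ± 0.09). None of these groups overlapped, which the rule for choosing the genes required.

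Pcsk2, a convertase that cuts prohormones into active peptides, fell from 482 to 625 in the controls (median 563) to 208 and 204 (-1.44 ± 0.08, adjusted p = 3.1e-11). Its level declined in steps, from 508 and 514 at 1 h of BDNF to 341 and 315 at 6 h. With KCl at 10 h it was instead at 854 and 821, a difference from BDNF of -2.02 ± 0.10 (adjusted p = 2.1e-12). The remaining falls of this set, with changes of -1.39 to -1.64, were Abca8a (an ABC transporter), Ccbe1 (a secreted matrix protein of lymphatic growth), Nipal3, Mapk15 (an atypical MAP kinase), Rasgrf2 (a calcium-activated Ras exchange factor), Dclk3, Rph3a (rabphilin, a vesicle protein) and Rtbdn.

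**Figure D1:**
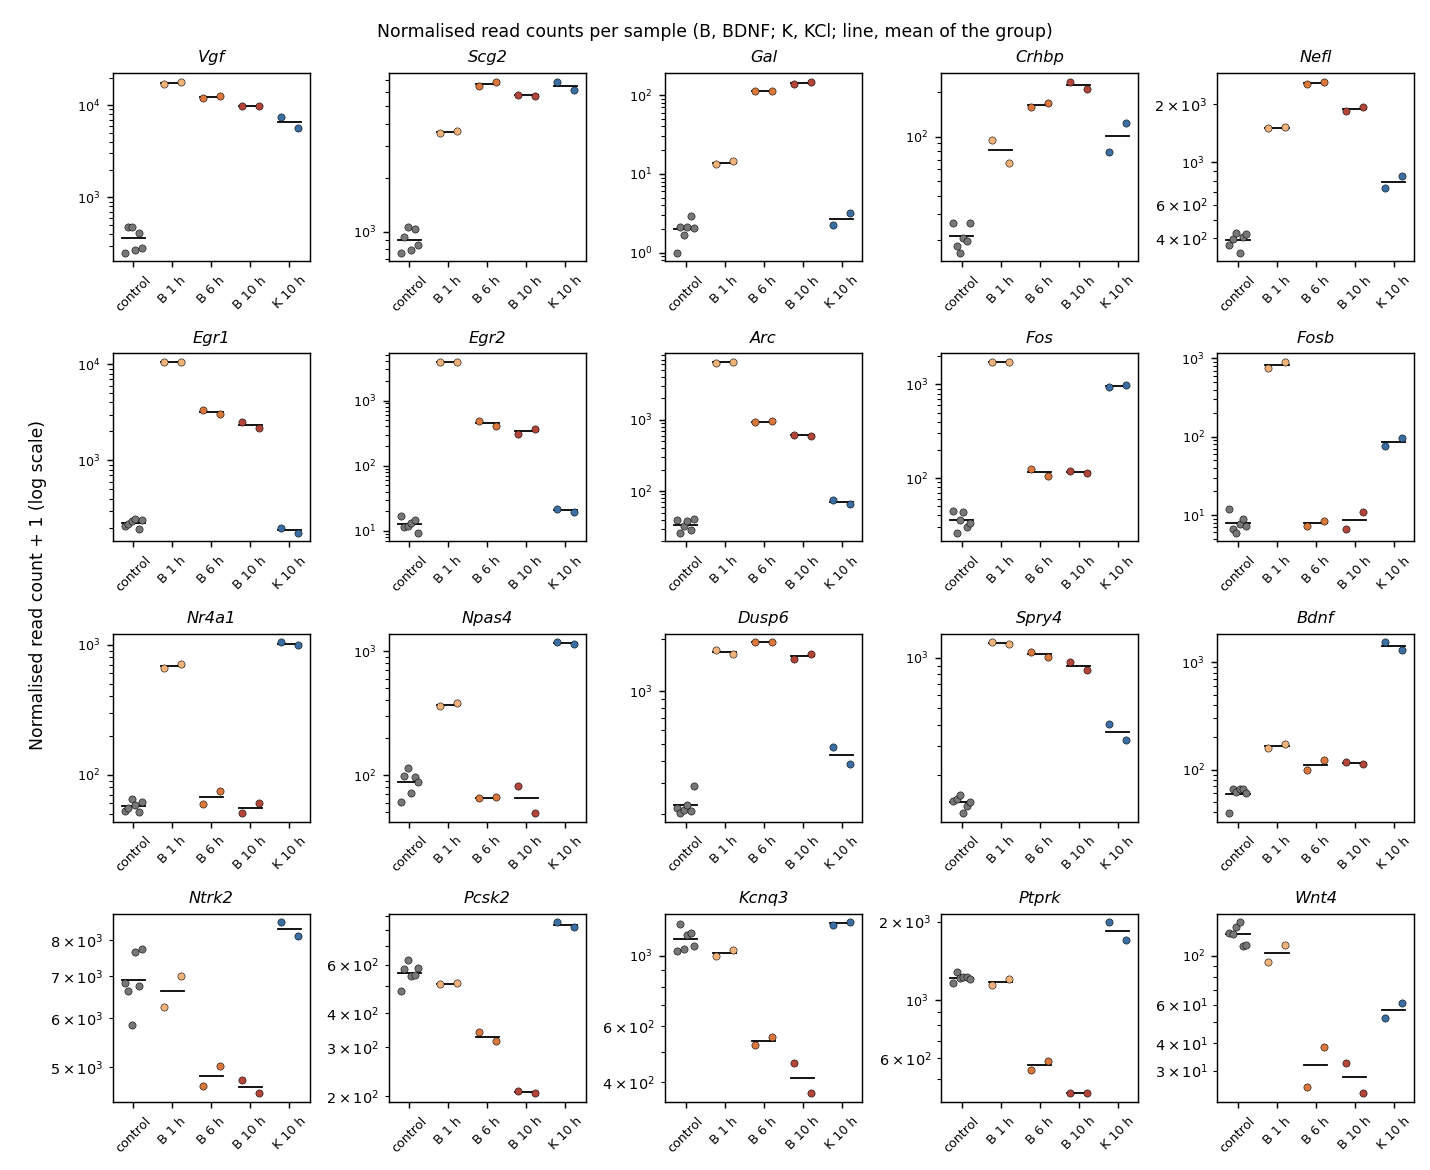
Normalized read counts (log axis, 1 added) of 20 genes in each control, BDNF and KCl library, with a line at the group mean. Egr1, Egr2, Arc and Gal stay above all controls at 10 h of BDNF, whereas Fosb and Nr4a1 are back at the level of the controls with BDNF at 10 h and raised with KCl.

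Transcription factors of the early response split into those that stayed up at 10 h and those that had returned. Of the 29 immediate early factors tested, 16 were higher and 1 lower, with a median change of 0.35 against -0.01 for all genes, and 9 rose at least 2-fold. Egr4, lower in abundance, stood at 85.9 and 81.7 against 1.04 to 10.2 in the controls, Junb at 228 and 254 against 60.1 to 84.6, and Egr3 at 44.1 and 53.7 against 17.1 to 30.7. Fos, the AP-1 subunit, had 119 and 113 against 25.1 to 43.3 (1.74 ± 0.15, adjusted p = 2.2e-08). Its level after 10 h of KCl was much higher, at 948 and 995 (BDNF minus KCl -3.06 ± 0.18, adjusted p = 8.3e-11).

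Fosb, Nr4a1, Npas4 and Fosl2 did not pass the test at 10 h. Fosb was at 5.65 and 9.84 against 4.93 to 10.8 in the controls, after 754 and 901 at 1 h. Nr4a1, an orphan nuclear receptor, was at 49.7 and 59 against 50.9 to 64.4, with 657 and 704 at 1 h of BDNF and 1045 and 985 at 10 h of KCl. Npas4, a calcium-dependent activator of inhibitory synapse genes, was at 80.2 and 48.4 against 60.1 to 114, whereas KCl left it at 1182 and 1132. Fosl2 was at 1125 and 1002 against 1119 to 1415. In each of these 4 genes at least 1 BDNF library lay among the controls.

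In direct tests, 27 of the 29 early factors were lower at 10 h than at 1 h of BDNF and none was higher, against 17.5% and 16.4% of all genes. Even Egr1, still 3.38 above the controls, had come down by 2.18 from 10503 and 10568 at 1 h (adjusted p = 5.5e-12). Against KCl at 10 h, 7 of the 29 were higher with BDNF and 13 lower, where 23.1% and 21.8% of all genes were. Egr1, Egr2 and Klf10 stood on the BDNF side of that difference, and Fos, Fosb, Fosl2, Nr4a1 and Npas4 on the KCl side. Egr4 and Egr3 differed between the stimuli by 0.73 (adjusted p = 0.37) and 0.10 (adjusted p = 0.81), which the test did not call.

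Plasticity effectors, the synaptic and signaling products of the early response, kept 14 of 21 members up and 2 down, with a median of 0.58. The neuronal pentraxins, secreted or membrane-bound proteins that gather AMPA receptors, rose together: Nptxr to 8576 and 8198 (controls 3204 to 4076, 1.19 ± 0.07), Nptx2 to 562 and 531 (176 to 223, 1.46 ± 0.13) and Nptx1 to 1225 and 1157 (454 to 633, 1.09 ± 0.10). Nptx1 and Nptx2 were lower than at 1 h, Nptxr higher (0.67, adjusted p = 8.4e-06). Homer1, a postsynaptic scaffold whose short form uncouples receptors, was at 1742 and 1741 against 843 to 962. Syt4, a synaptotagmin found on BDNF-containing vesicles, fell to 5198 and 5544 against 6152 to 7471 (-0.35 ± 0.08, adjusted p = 0.002).

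Feedback inhibitors of MAP kinase signaling were up in 11 of 22 cases and down in 1. Dusp6, a phosphatase of ERK, stood at 1528 and 1638 against 201 to 288 (median 211, 2.83 ± 0.11, adjusted p = 1.1e-13). Dusp5 (2.68), Dusp4 (2.60) and Spry4 (2.70) changed by nearly as much, and Spry2 by 0.74. Against 1 h of BDNF, 10 of the 22 were lower at 10 h and 2 higher. Spry2 dropped by 0.51 (adjusted p = 0.00029), while no drop was called for Dusp6 and Dusp4 (log2 differences -0.09 and -0.34, adjusted p = 0.68 and 0.22). BDNF exceeded KCl at 10 h for Dusp6 (1.89 ± 0.14), Dusp5 (1.67 ± 0.22) and Dusp4 (1.53 ± 0.20), and for 10 of the 22 in all against 4 that were lower.

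The neurotrophin system itself moved in both directions, 7 of 19 genes up and 6 down (4 and 5 without BDNF library A, 6 and 3 without B). Bdnf mRNA was at 118 and 113 against 38.5 to 65.1 in the controls (0.98 ± 0.19, adjusted p = 0.0007), and KCl took it to 1547 and 1318. Ntf3, neurotrophin 3, fell to 18.1 and 23.5 from 80.3 to 106 (-2.13 ± 0.18, adjusted p = 1.3e-08). Ntrk2 was lower, at 4761 and 4537 against 5835 to 7734 (-0.57 ± 0.09), and Sorcs3, a sorting receptor of neurotrophin signaling, was higher (0.91 ± 0.11).

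Among cargo of dense-core vesicles, Scg2 (secretogranin II) rose to 5765 and 5727 from 762 to 1062, and Ptprn, a granule membrane protein, to 2283 and 2100.1 from 534 to 831. In all, 5 of 13 granins and secretory proteins were up and 2 down. Of 11 processing enzymes, 4 were up (2 without BDNF library B) and 2 down, among them Pcsk2. Pcsk1, the other neuroendocrine convertase, was at 17 and 28 with BDNF against 16.6 to 31.9, and at 517 and 562 with KCl (difference -4.56 ± 0.29, adjusted p = 2.8e-10). In the direct test with KCl, 8 of the 11 enzymes were lower with BDNF and 2 higher.

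Of 22 neuropeptide precursors, 12 were higher and 1 lower, with a median of 0.41. Besides Gal, they included Grp, gastrin-releasing peptide (259 and 275 against 73.6 to 109), Tac1, the precursor of substance P (64.4 and 65.8 against 16.5 to 35.3, 1.47 ± 0.22), Npy (476 and 621 against 189.8 to 260.0, 1.27 ± 0.12) and Sst (3630.4 and 4349 against 1611 to 2781, 0.93 ± 0.18). Grp went the other way with KCl, at 19.6 and 41.4. Npy and Sst mark subsets of interneurons. Secreted growth factors were near the shares of all genes (6 of 35 up, 17.1%, and 8 down, 22.9%, against 21.1% and 19.5%). Vegfa (0.78) and Pdgfb (0.76) rose, and Tgfa fell (-0.56). Inhba, an activin subunit, was slightly lower (-0.42 ± 0.19, adjusted p = 0.092), although it had been at 95.8 and 88.5 at 1 h. The Inhba call was lost without either BDNF library, in DESeq2, with no filter on low values and with the controls of 10 h only. The growth factor counts were 5 up and 5 down without library A, and 4 and 5 without B.

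**Figure D2:**
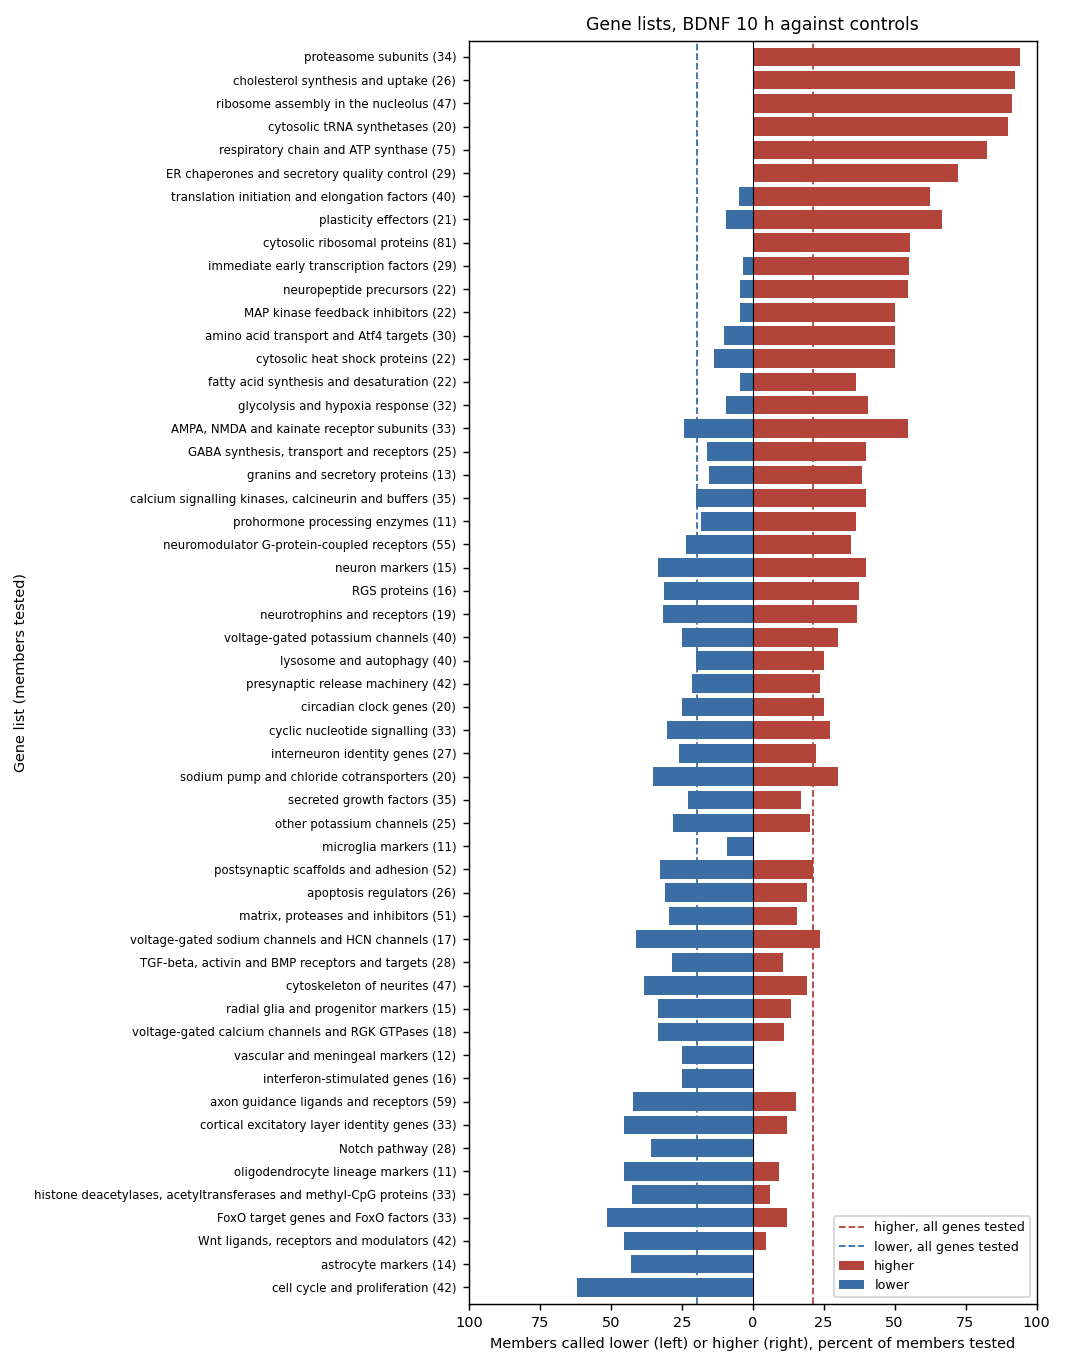
Share of gene lists called higher (right, red) or lower (left, blue) at BDNF 10 h than in the controls, in percent of the members tested, whose number stands in brackets. Dashed lines mark the shares over all genes tested, 21.1% and 19.5%, and proteasome, cholesterol and ribosome assembly lists lie far to the right while cell cycle and Wnt lists lie to the left.

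The genes that build and fold proteins shifted upward together, by small amounts. Of 47 factors of ribosome assembly in the nucleolus, 43 were higher and none lower (median 0.36), Bysl (0.86), Ltv1 (0.80) and Grwd1 (0.77) among them. Bysl, which matures the small subunit, stood at 555 and 602 against 304 to 341 in the controls. Of 20 cytosolic tRNA synthetases, 18 were higher and none lower (median 0.39), led by Hars and Aars (0.66 each), and of 40 translation factors 25 were higher and 2 lower. Over the alternatives tried, 30 to 43, 16 to 20 and 16 to 28 genes of these lists were higher, with 16 translation factors without BDNF library B.

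For the cytosolic ribosomal proteins the count depended on the libraries and the settings. Of 81, 45 were higher and none lower (median 0.24), but 12 were higher without BDNF library B, 46 without A, 23 to 51 under other tools and scalings and 20 to 45 under the other settings, and the summed level was 81885 in A and 91458 in B against 70543 to 79298. Rpl22l1, a paralog of Rpl22, changed most (1.05 ± 0.13). These proteins have many processed pseudogenes, and nothing in the sources says how the counting shared such reads. The 75 genes of the respiratory chain and ATP synthase behaved alike: 62 were higher and none lower (median 0.31), and 26 without B or 53 without A. Cycs, cytochrome c, had 695 and 653 against 391 to 449.8, and Atp5g1 584 and 636 against 339 to 400.3.

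Chaperones of the endoplasmic reticulum, which fold secreted and membrane proteins, were higher in 21 of 29 cases and lower in none (median 0.40). Dnajb11, a co-chaperone of BiP, was at 1736 and 1793 against 841 to 971 (0.96 ± 0.07, adjusted p = 8.6e-10). Sdf2l1 (0.87), Manf (0.71) and Creld2 (0.67) followed. Against KCl at 10 h, 17 of the 29 were higher with BDNF and 2 lower, Dnajb11 by 0.90 ± 0.08. Cytosolic heat shock proteins were less one-sided, with 11 of 22 up and 3 down.

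Promoters of these lists were searched, on both strands, for the elements known to serve them, in the 300 bases from 250 before to 50 after the RefSeq start site (10962 genes tested had such a promoter). The ER stress element, spelled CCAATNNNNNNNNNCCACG, was present in 8 of 24 ER chaperone promoters, 7 of them of genes that were higher, and in 19 of all 10962 (0.173%). The 3 shown here, from RefSeq (GRCm38.p6), carry it in capitals, which for Creld2 mark the reverse strand; the sequences are those of Hspa5 (BiP, chr2:34771840-34772139, plus strand), Creld2 (chr15:88819396-88819695, plus) and Pdia6 (chr12:17266339-17266638, plus). Hspa5 and Pdia6 were chosen after their values were seen.
Hspa5: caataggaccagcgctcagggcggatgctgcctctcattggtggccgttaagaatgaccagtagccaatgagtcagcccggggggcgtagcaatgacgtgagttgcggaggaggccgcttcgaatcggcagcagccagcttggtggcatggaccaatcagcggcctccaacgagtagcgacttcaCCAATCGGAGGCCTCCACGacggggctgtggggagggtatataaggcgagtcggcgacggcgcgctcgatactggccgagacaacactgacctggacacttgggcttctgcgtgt
Creld2: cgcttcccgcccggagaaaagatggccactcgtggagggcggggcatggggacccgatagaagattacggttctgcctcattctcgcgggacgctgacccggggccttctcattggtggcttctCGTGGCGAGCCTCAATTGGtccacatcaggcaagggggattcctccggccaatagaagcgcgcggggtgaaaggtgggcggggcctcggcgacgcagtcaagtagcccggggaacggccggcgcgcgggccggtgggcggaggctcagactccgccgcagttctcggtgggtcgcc
Pdia6: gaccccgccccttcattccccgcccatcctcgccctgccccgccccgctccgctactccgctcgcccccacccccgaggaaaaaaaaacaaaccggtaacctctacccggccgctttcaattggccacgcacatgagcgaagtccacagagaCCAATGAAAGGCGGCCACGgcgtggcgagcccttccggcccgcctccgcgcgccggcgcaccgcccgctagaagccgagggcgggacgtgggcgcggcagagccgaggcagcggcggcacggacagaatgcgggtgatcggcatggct

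The element began 65, 126 and 98 bases upstream of the respective start sites. The 3 genes rose by similar amounts: Hspa5 to 8636 and 9132 from 5797 to 7044 in the controls (0.53 ± 0.07, adjusted p = 1.1e-05), Creld2 to 345 and 389.8 from 192 to 263 (0.67 ± 0.12) and Pdia6 to 2819 and 3177 from 1825 to 2170.4 (0.59 ± 0.07). At 10 h of KCl they stood at 6978 and 5871, at 306 and 211 and at 2123 and 1921, lower than with BDNF in each direct test (adjusted p = 0.00028, 0.0085 and 1.6e-05). A match is a description of the sequence and shows no binding.

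Amino acid supply followed the synthetases. Of 30 amino acid transporters and Atf4 target genes, 15 were higher and 3 lower (median 0.19). Asns, asparagine synthetase, stood at 1185 and 1184 against 551 to 685 (0.92 ± 0.08, adjusted p = 1.8e-08), Slc7a1, a carrier of cationic amino acids, at 1816 and 1724 against 969.7 to 1122 (0.77), and Stc2 at 235 and 209.6 against 119 to 156 (0.77). The amino acid response element, spelled TGATGNAA and the site of Atf4 dimers, was found in 8 of 25 promoters of this list (4 of genes that were higher and 2 of genes that were lower) and in 5 of 12 tRNA synthetase promoters, all of genes that were higher, against 2.71% of all. It is shown in capitals in the promoters of Asns (chr6:7693160-7693459, minus strand) and Aars, the alanyl-tRNA synthetase (chr8:111033592-111033891, plus), where both matches lie on the reverse strand.
Asns: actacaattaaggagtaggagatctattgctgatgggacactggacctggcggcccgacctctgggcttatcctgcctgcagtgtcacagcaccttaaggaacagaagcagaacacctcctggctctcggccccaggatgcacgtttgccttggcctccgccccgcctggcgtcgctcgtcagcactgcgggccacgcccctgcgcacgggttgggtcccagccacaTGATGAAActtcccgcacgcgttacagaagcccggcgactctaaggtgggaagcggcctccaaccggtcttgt
Aars: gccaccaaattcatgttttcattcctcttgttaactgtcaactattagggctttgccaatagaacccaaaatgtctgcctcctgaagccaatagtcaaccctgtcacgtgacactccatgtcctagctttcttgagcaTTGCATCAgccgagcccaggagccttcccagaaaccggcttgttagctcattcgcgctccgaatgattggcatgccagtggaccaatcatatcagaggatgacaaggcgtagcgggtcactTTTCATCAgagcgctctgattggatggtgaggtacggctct

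Other elements were less frequent. The E-box CACGTG lay in 10 of 41 ribosome assembly promoters, all of genes that were higher, against 11.5% of all promoters, and the palindromic NRF1 site in 5 of 62 of the respiratory chain against 2.23%. The sterol element TCACNCCAC was found in 1 of 19 cholesterol promoters, that of Hmgcs1, against 1.4% of all. The CArG box, the serum response factor site, lay in 2 of 22 promoters of early factors, Egr2 among them, against 1.66%. The CRE, spelled TGACGTCA, lay in 1 of 22 promoters of early factors, 2 of 17 of neuropeptides (Sst among them) and 3 of 20 of MAP kinase inhibitors, against 3.58%.

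Genes of cholesterol synthesis and uptake moved together, with 24 of 26 genes higher and none lower (median 0.55) and 23 or 24 under every alternative. Fdps, the farnesyl diphosphate synthase, was at 1343 and 1324 against 593 to 854 (0.93). Msmo1 (0.74), Ebp (0.73) and Hmgcs1 (0.41) rose as well. At 10 h of KCl the levels were higher still: 19 of the 26 were lower with BDNF than with KCl and 2 higher. Against 1 h of BDNF, 12 were lower at 10 h and 5 higher, with Fdps up by 0.36.

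Fatty acid synthesis was higher in 8 of 22 genes and lower in 1, with Elovl7 (1.27) and Acsl4 (1.00) among them, and glycolysis and hypoxia response in 13 of 32 with 3 lower, including Aldoa (0.82), Eno2 (0.66) and Ldha (0.62). Without BDNF library A, 5 fatty acid genes were higher, and without B 8 glycolysis genes. Proteasome subunits, the core of protein breakdown, were higher in 32 of 34 cases and lower in none (median 0.40). Psmb5, a catalytic subunit, stood at 552 and 636 against 333 to 432, and Psmd14, the deubiquitinase of the lid, at 868 and 985 against 554 to 635. Lysosome and autophagy genes were mixed (10 of 40 up, 8 down, and 7 and 5 without BDNF library A or 6 and 5 without B), with Map1lc3a up by 0.60.

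FoxO factors and their targets, which are held down when PI3 kinase and Akt are active, were lower in 17 of 33 cases and higher in 4 (median -0.19, and 14 and 2 without BDNF library A). Txnip, which restrains glucose uptake, fell to 258 and 251 from 519 to 663 (-1.26 ± 0.16, adjusted p = 7.8e-06). Arrdc4, its relative, and Pik3ip1, an inhibitor of PI3 kinase, each fell by 0.86. Cdkn1a, a cell cycle inhibitor on the same list, went up instead, to 1191 and 1279.7 from 331 to 551 (1.54 ± 0.13). The FoxO site GTAAACA was in 5 of 28 promoters of the list, 3 of them of genes that were lower, against 3.05% of all.

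Regulators of apoptosis were lower in 8 of 26 cases (30.8%) and higher in 5 (19.2%), against 19.5% and 21.1% of all genes, with a median change of -0.08. The counts were 5 lower and 4 higher without BDNF library A, and 7 and 1 without B. The BH3-only killers Bmf (46.3 and 39.4 against 72.1 to 106, -1.01 ± 0.16) and Bbc3 (151 and 164 against 226 to 297, -0.74 ± 0.16) were lower. Bbc3 had been at 534 and 530.4 at 1 h of BDNF, above all controls, and dropped by 1.75 from there (adjusted p = 1.3e-06). Clock genes were balanced, 5 of 20 in each direction, with the repressor Bhlhe40 at 410.3 and 373 against 177 to 210.1 (0.99 ± 0.10).

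Receptors for glutamate moved upward more often than down: 18 of 33 AMPA, NMDA and kainate receptor subunits and partners were higher and 8 lower (median 0.36), with 4 lower without BDNF library B. Grin2a, the NMDA receptor subunit of mature synapses, was at 84.8 and 73.4 against 31.8 to 52.6 (0.97 ± 0.21), whereas Grin2b, the subunit of young synapses, was at 4089 and 3717 against 4083 to 5732 (-0.25 ± 0.10, adjusted p = 0.054, with overlapping groups and the call lost without BDNF library B). Gria1 rose to 7681 and 7426 from 4788 to 6266 (0.43 ± 0.09), and KCl took it down to 4029.9 and 3448. The auxiliary subunits Shisa6 (0.93) and Neto2 (0.85) rose too. Shisa6 was likewise lower with KCl, at 384 and 380.1 against 650.5 to 842 in the controls.

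GABA genes were up in 10 of 25 cases and down in 4. Gabra5, which forms extrasynaptic receptors, rose to 1559 and 1433 from 582 to 709 (1.20 ± 0.07, adjusted p = 3.6e-11). Gad1 and Gad2, the synthetic enzymes, rose by 0.41 and 0.56, while Gabrb1 fell by 0.59. Slc12a5, the chloride extruder KCC2 that makes GABA inhibitory, went down to 1494 and 1419 from 1635 to 2029.9 (-0.35 ± 0.10, adjusted p = 0.016), a call lost without BDNF library B and with the controls of 10 h only. Against KCl, 15 of the 25 genes were lower with BDNF and 6 higher.

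Ion channel classes held both rises and falls. Voltage-gated potassium channels were up in 12 of 40 cases and down in 10 (6 and 7 without BDNF library A): Kcna1 (410.3 and 400.3 against 170.1 to 209) and Kcns1 (1.07 each) rose, Kcnq3 and Kcnh4 (-0.96) fell. Of 25 other potassium channels 5 were up (20.0%) and 7 down (28.0%), near the same shares of all genes (5 and 3 without BDNF library B, 3 and 4 without A). Kcnk9, a leak channel, was at 276 and 292 against 73.1 to 87.8 (1.85 ± 0.12). Kcnj2, an inward rectifier, was down by 0.91, a call lost without BDNF library A. Sodium and HCN channels (4 of 17 up, 7 down, and 2 and 6 without BDNF library A) included Scn3b (-0.78) and Scn1a (-0.60) among the falls.

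Scn1a, the main sodium channel of fast-spiking interneurons, was at 268 and 229 with BDNF, 329 to 422 in the controls and 1683 and 1666 with KCl, a difference between the stimuli of -2.75 ± 0.13 (adjusted p = 1.5e-12). Calcium channels and their RGK inhibitors were down in 6 of 18 cases and up in 2. Cacna1g, a T-type channel, fell to 437 and 383 from 725 to 908 (-1.04 ± 0.09), and Rem2 to 65.6 and 62.8 from 78.8 to 147 (-0.74 ± 0.21, a call lost without BDNF library B), after 738 and 694 at 1 h.

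Calcium and second-messenger signaling genes included some of the clearest late rises. Pde1a, a calmodulin-dependent phosphodiesterase of cyclic nucleotides, was at 1807 and 1747 against 343 to 396 (2.24 ± 0.07, adjusted p = 1.1e-15). It was still at 318 and 316 after 1 h of BDNF and at 402 and 358 after 10 h of KCl. Slc24a3, a sodium, calcium and potassium exchanger, had the same profile (2358 and 2149 against 745 to 905, with 833 and 870.1 at 1 h and 968 and 688 with KCl). Rcan2, a calcineurin inhibitor (1.32), and Itpka, an inositol trisphosphate kinase (1.40), rose, while Ryr3, a calcium release channel, fell to 216 in both libraries from 434 to 542 (-1.15 ± 0.11).

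Of 55 neuromodulator receptors, 19 were higher and 13 lower. Adra1d, an adrenergic receptor, stood at 52 and 54.5 against 4.89 to 16.8 (2.52 ± 0.35), Cckbr, a cholecystokinin receptor, at 104 and 84.8 against 10.3 to 21.8 (2.48 ± 0.22), and Sstr3, a ciliary somatostatin receptor, at 101 and 84.8 against 11.4 to 19.7 (2.43 ± 0.24). Gpr3, a constitutively active receptor, rose by 1.83. Rgs4, which turns off G protein signals, was at 1052 and 1136 against 382 to 458 (1.40 ± 0.16), and Rgs9 fell by 0.96, within 6 up and 5 down of 16 RGS genes (4 and 3 without BDNF library A). Adcy1 (-0.55) fell among the cyclic nucleotide genes (9 up and 10 down of 33, and 4 and 9 without BDNF library A or 7 and 6 without B). Among exchange factors of small GTPases, Vav3 (1.40) rose and Rasgrf1 (-1.03) fell, as did Rasgrf2.

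Genes of synaptic structure held both rises and falls, and the presynaptic shares, 23.8% up and 21.4% down, were near the 21.1% and 19.5% of all genes. Presynaptic genes were up in 10 of 42 cases and down in 9 (5 and 8 without BDNF library A, 8 and 4 without B), with Syp (0.47) and Doc2b (0.62) up and Syn3 (-0.74) down. Among postsynaptic scaffolds and adhesion molecules, 11 of 52 were up and 17 down (11 and 8 without BDNF library B), and the largest rises were secreted synaptic organizers of the C1q family: C1ql2 (1.88 ± 0.22), Cbln1 (1.58 ± 0.08) and C1ql3 (1.14 ± 0.26). Cbln1, which links neurexins to delta receptors across the cleft, stood at 1773 and 1843 against 542 to 644 (adjusted p = 2.8e-12). KCl lowered it to 331 and 297, so that the stimuli differed by 2.52 ± 0.10 (adjusted p = 3.8e-14).

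Genes of axon growth and guidance tended down, 25 of 59 against 9 up (median -0.18, and 20 against 5 without BDNF library A). Draxin, a repulsive guidance protein, fell to 1600.5 and 1609.7 from 3033 to 3381 (-0.98 ± 0.06), and Ephb1 to 532 and 548 from 960.1 to 1083 (-0.95 ± 0.07). Sema3e, a secreted semaphorin, went up to 453 and 460.1 from 76.4 to 102 (2.35 ± 0.14), and the netrin receptor Unc5b by 1.32. Cytoskeletal genes of neurites were down in 18 of 47 cases and up in 9. Nefl and Nefm, neurofilament chains, were among those that rose, at 1847 and 1936 against 336 to 428 (2.27 ± 0.09) and at 1883 and 1843 against 408 to 479.7 (2.06 ± 0.14). Nefl lies on the opposite strand within the annotated span of Nefm on chromosome 14, and strand use in the counting is not given, so reads of the pair may be shared.

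Matrix genes and proteases were down in 15 of 51 cases and up in 8 (8 and 5 without BDNF library A, 8 and 4 without B): Hapln1, a link protein of perineuronal nets (-1.07 ± 0.15), and Adamts3 (-0.89) fell, and Serpinb2, an inhibitor of plasminogen activators, rose to 58.8 and 49.9 from 7.83 to 12.4 (2.29 ± 0.23). Plat, the tissue activator itself, was at 712 and 659.9 among controls of 548 to 843, after 2317 and 2471 at 1 h. Thbs1, thrombospondin 1, was at 744 and 891 against controls spread from 1093 to 3877 (-1.32 ± 0.50, adjusted p = 0.066), and its call was lost without either BDNF library, without control 10 h A, without control 1 h B and with the controls of 10 h only.

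Developmental signaling genes were lower more often than higher. Of 42 Wnt genes, 19 were lower and 2 higher (median -0.34, and 10 and 2 without BDNF library B), with Wnt4, Wnt9a (-0.96 ± 0.27) and the receptor Fzd5 (-0.92 ± 0.29, overlapping groups, call lost without BDNF library B) down and Wif1, a secreted Wnt inhibitor, up to 72.3 and 69.6 from 5.48 to 11.7 (3.04 ± 0.31). Of 28 Notch genes, 10 were lower and none higher (median -0.28), Notch2 by 0.66 ± 0.16. TGF-beta and BMP genes were lower in 8 of 28 cases and higher in 3 (3 and 2 without BDNF library A, 4 and 2 without B). Layer identity genes of excitatory neurons were lower in 15 of 33 and higher in 4 (median -0.19): Mef2c fell to 2628 and 2398 from 4295 to 4712 (-0.84 ± 0.07) and Pou3f1 rose to 775 and 767 from 365 to 455 (0.95 ± 0.09). Interneuron identity genes went both ways, 6 of 27 up (22.2%) and 7 down (25.9%), near the 21.1% and 19.5% of all genes. Elfn1 (0.70) and Calb1 (0.68) rose and Prox1 (-0.67) fell. On the list of histone deacetylases, acetyltransferases and methyl-CpG proteins 14 of 33 were lower and 2 higher (5 and 2 without BDNF library B). The list also holds Ezh1 (-0.57), a histone methyltransferase outside these classes.

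Proliferation genes were lower in 26 of 42 cases and higher in none (median -0.38). Mki67 stood at 1726 and 1619 against 1879 to 3508 (-0.69 ± 0.18, adjusted p = 0.013, a call lost without BDNF library B), Cenpf at 523 and 616 against 742 to 1226 (-0.79 ± 0.18) and Kif23 at 151 and 165 against 187 to 310.4 (-0.64 ± 0.17). The count was 7 without BDNF library A and 16 without B, and the summed level, 16910 and 18274, lay below the lowest control (18309 to 26371). With KCl the levels were lower still, as 19 of the 42 were higher with BDNF than with KCl and none lower. The CHR element TTTGAA of cell cycle promoters lay in 16 of 35 promoters of the list, 12 of them of genes that were lower, against 13.9% of all. It occurs in the Mki67 promoter (chr7:135716330-135716629, minus strand) at both places in capitals.
Mki67: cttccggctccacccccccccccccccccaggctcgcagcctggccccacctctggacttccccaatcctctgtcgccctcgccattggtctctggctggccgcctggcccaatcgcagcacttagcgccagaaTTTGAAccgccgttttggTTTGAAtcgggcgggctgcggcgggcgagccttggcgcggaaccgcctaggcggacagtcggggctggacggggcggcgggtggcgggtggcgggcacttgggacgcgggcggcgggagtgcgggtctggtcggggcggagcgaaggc

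Astrocyte markers were lower in 6 of 14 cases and higher in none (3 lower without BDNF library A), with Aqp4 at 337 and 296 against 396 to 714 (-0.85 ± 0.19), Gja1 at 1311 and 1528 against 1723 to 3369 (-0.85 ± 0.27) and Gfap at 156 and 181 against 182 to 379.7 (-0.59 ± 0.20). The calls of Gja1 and Gfap were lost without library A, and that of Gja1 also without B and with the controls of 10 h only. Against 19.5% of all genes, progenitor markers were lower in 5 of 15 and higher in 2, vascular markers lower in 3 of 12, microglia markers in 1 of 11 and oligodendrocyte lineage markers in 5 of 11. Without library B, 3 progenitor and 3 oligodendrocyte lineage markers were lower. Mbp, on the last list, was the 1 that rose, to 340.2 and 321 from 138 to 171. Interferon-stimulated genes were lower in 4 of 16 cases, and in none without either BDNF library. The part of cell composition in the falls of the Wnt, Notch, matrix and proliferation lists was not tested.

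Called direction also varied with gene length. The median exon length was 3296.5 bases for the genes that were higher, 5894 for those that were lower and 4040 for all genes tested. With the genes split into 4 bins of equal number by exon length, from the shortest to the longest bin, the share called higher went from 26.8% to 14.0% and the share called lower from 7.09% to 34.7%. The median exon length was 1770 bases in the ribosomal protein list, 1756 in the respiratory chain list and 2814 in the proteasome list. The part of transcript length in the list counts was not tested.

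**Figure D3:**
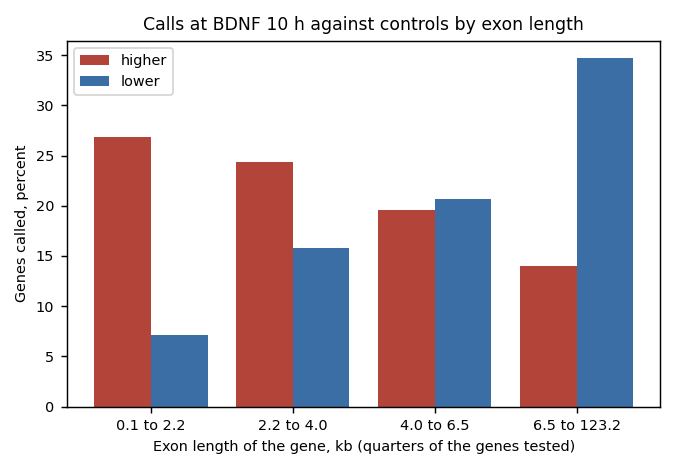
Percent of genes called higher (red) or lower (blue) at BDNF 10 h than in the controls, by bin of exon length in kb, each bin holding 4003 or 4004 genes. The share lower rises from 7.09% in the shortest bin to 34.7% in the longest.

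Set against 1 h of BDNF, 2655 genes were higher at 10 h (16.4%) and 2836 lower (17.5%). Of the 210 genes that had risen at least 2-fold over the controls, 118 were higher at 10 h than at 1 h and 37 lower; of the 223 that had fallen, 119 were lower and 2 higher. These counts share the BDNF 10 h libraries with the choice of genes and are a description. Early lists had come down (plasticity effectors 2 higher, 17 lower of 21). In contrast, 14 of 20 tRNA synthetases, 20 of 34 proteasome subunits and 23 of 75 respiratory chain genes were higher and none lower. Ribosome assembly had 17 of 47 higher and 5 lower, ribosomal proteins 7 of 81 and 2, and translation factors 5 of 40 and 7. Cytoskeletal genes were lower at 10 h in 28 of 47 cases and higher in 2.

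Between 6 h and 10 h of BDNF little changed that the test could call: 12 genes were higher (0.074%) and 23 lower (0.142%). At an unadjusted p below 0.05, 949 genes passed in limma, 1022 in edgeR and 777 in DESeq2, and the last 2 called 56 and 86 genes. No gene was called without BDNF 10 h library B, 20 without A, 1 without BDNF 6 h A and 5 without B. The lower genes were largely ones on their way down. C1ql2 went from 222 and 224 at 6 h to 67.8 and 93.1 (-1.48 ± 0.27, adjusted p = 0.035), Slc24a4 from 225 and 253 to 96.1 and 93.1, within its controls of 84.1 to 138 (-1.33 ± 0.21), and Nptx1 from 2427 and 2515 to 1225 and 1157 (-1.05 ± 0.13).

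Also lower at 10 h than at 6 h were Klf10 (-0.78), Cdkn1a (-0.79), Sv2c, a vesicle glycoprotein (-0.77), Sema3e (-0.75), Ryr3 (-0.70) and Pcsk2 (-0.67). On the rising side were Lingo2 (0.62), Gabrg1 (0.52), Gucy1b1 (0.49), Mef2c (0.45) and Nol4 (0.44). Mef2c was thus recovering from 1914 and 1753 at 6 h, still below all controls. For most named rises, including Gal, Vgf, Egr2, Dusp6 and Pde1a, no difference between 6 h and 10 h was called.

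Set against KCl at 10 h, 3752 genes were higher with BDNF (23.1%) and 3535 lower (21.8%). Of the 210 rises over the controls, 135 were higher with BDNF than with KCl and 20 lower, and of the 223 falls 114 were lower and 12 higher. Again these share the BDNF libraries with the choice. The 4 lists with the largest excess on the BDNF side, of the 55, were ribosome assembly (32 of 47 higher, 1 lower), ER chaperones (17 of 29 and 2), proliferation (19 of 42 and none) and proteasome (14 of 34 and none). On the KCl side the corresponding 4 were cholesterol synthesis (2 of 26 higher with BDNF, 19 lower), prohormone processing (2 and 8 of 11), other potassium channels (4 and 15 of 25) and lysosome and autophagy (4 and 20 of 40).

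**Figure D4:**
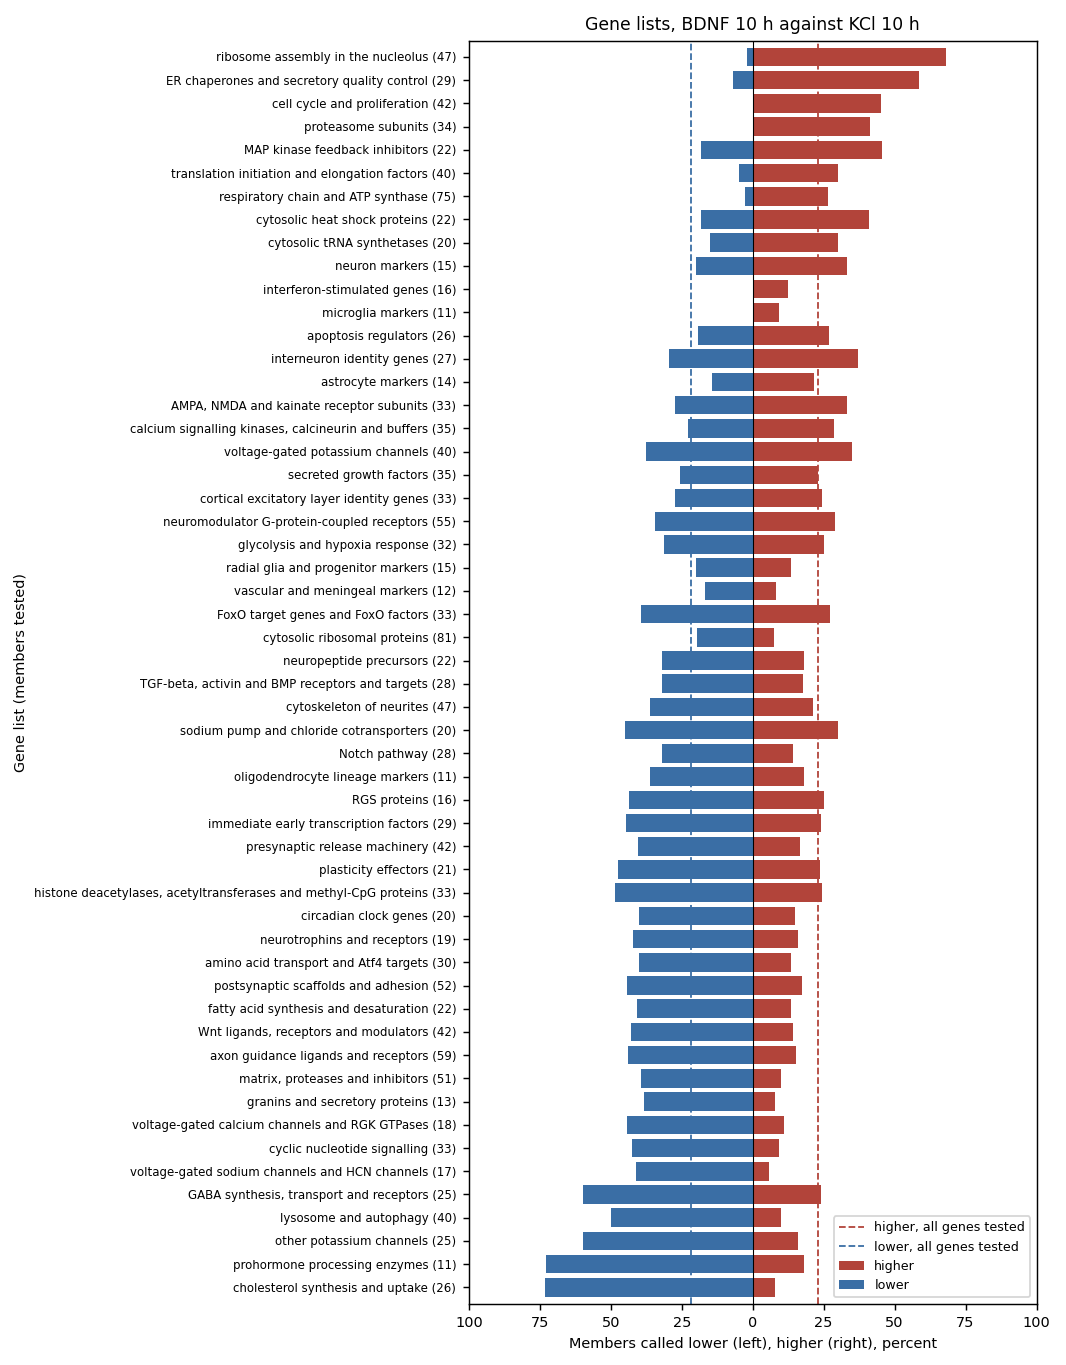
Share of gene lists called higher (right, red) or lower (left, blue) with BDNF than with KCl at 10 h, in percent of the members tested. Dashed lines mark all genes tested, 23.1% and 21.8%, and ribosome assembly (32 of 47 higher) and cholesterol synthesis (19 of 26 lower) stand at the ends.

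Some genes stood above the controls with one stimulus and below with the other. Ptprk was at 1987 and 1698 with KCl against 439.7 and 439 with BDNF (difference -2.06 ± 0.09, adjusted p = 3.8e-13). Hapln1 was at 592 and 426 against 83.6 and 96.9 (-2.47 ± 0.18), and Gabrb1 at 709 and 606 against 184 and 167 (-1.89 ± 0.13). In the other direction were Grp (3.18 ± 0.24), Cbln1 (2.52 ± 0.10), Klf10 (1.89 ± 0.11), Shisa6 (1.91 ± 0.13) and Gria1 (1.02 ± 0.11). The controls lay between the stimuli for each of these 8 genes.

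Open chromatin was measured in separate libraries. ATAC-seq counts transposase cuts in accessible DNA, and the BDNF 10 h libraries held 2.02 M and 2.78 M reads in peaks. Of 56383 peaks, 4204 were more accessible than in the controls (gained, 7.46%) and 1072 less (closing, 1.9%). A gained peak lay within 20 kb of a start site for 46 of the 198 genes that rose at least 2-fold and had a peak there (23.2%), for 18 of 199 that fell (9.05%), and for 1233 of all 14664 (8.41%). Closing peaks lay near 7 of the 198 (3.54%), 12 of the 199 (6.03%) and 672 of all (4.58%). With TMM scaling, closing peaks lay near 6.03% of the fallen genes and 7.28% of all, so this order depended on the scaling. With BDNF 10 h ATAC library A or B left out, 15.2% and 13.1% of the risen genes had a gained peak, against 4.81% and 5.75% of all.

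The AP-1 motif, the site of Fos and Jun dimers, spelled TGANTCA and searched on both strands, lay in the central 300 bases of 3142 of the 4204 gained peaks (74.7%), of 3.73% of the closing peaks and of 16.3% of all. It was in 33 of the 49 gained peaks near risen genes (67.3%), in 17 of 25 near fallen genes (68.0%), and in 67 of 526 peaks near risen genes that were not called (12.7%). Gained peaks held the EGR motif GCGNGGGCG in 0.547% of cases against 3.87% of all peaks, the CRE in 0.737% against 0.999%, the CArG box in 1.38% against 1.43% and the E-box in 3.28% against 4.95%. For these motif shares the peak classes were not matched for GC content or promoter overlap, so they do not tell enrichment or depletion from such differences. With background regions matched for both, the authors reported EGR motifs among those found in BDNF-gained peaks.

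The 4 gained peaks shown here were chosen for holding an AP-1 motif and are examples. They lie near genes named above or, for Kcnmb2, near an auxiliary subunit of calcium-activated potassium channels. AP-1 motifs are in capitals (plus strand, GRCm38.p6, 300 bases around the centre of each peak). Another gained peak lies on a Synj2 start site (log2 change 2.38 ± 0.45) and is not shown. They come from chr19:3419345-3419644, 4794 bases from a Gal start site; chr10:99250802-99251101, 12147 bases from Dusp6; chr17:6016461-6016760, within the span of Synj2 and 2922 bases from one of its start sites; and chr3:31898571-31898870, 3641 bases from Kcnmb2.
Gal peak: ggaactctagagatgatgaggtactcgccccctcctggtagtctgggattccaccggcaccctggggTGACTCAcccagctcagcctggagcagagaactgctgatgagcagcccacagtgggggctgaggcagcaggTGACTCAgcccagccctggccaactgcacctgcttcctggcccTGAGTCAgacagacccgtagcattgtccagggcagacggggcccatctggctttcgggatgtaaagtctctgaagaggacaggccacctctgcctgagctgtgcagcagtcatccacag
Dusp6 peak: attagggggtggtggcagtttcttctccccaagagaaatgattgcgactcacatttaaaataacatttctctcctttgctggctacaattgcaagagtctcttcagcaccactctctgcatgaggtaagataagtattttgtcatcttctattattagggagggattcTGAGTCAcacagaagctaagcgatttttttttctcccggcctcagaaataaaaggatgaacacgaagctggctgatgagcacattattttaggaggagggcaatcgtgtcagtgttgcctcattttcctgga
Synj2 peak: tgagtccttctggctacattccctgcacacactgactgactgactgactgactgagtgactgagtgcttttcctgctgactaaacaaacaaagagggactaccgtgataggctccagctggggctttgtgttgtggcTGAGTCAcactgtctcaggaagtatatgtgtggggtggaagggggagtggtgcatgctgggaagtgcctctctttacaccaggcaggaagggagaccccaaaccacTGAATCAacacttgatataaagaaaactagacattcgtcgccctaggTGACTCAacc
Kcnmb2 peak: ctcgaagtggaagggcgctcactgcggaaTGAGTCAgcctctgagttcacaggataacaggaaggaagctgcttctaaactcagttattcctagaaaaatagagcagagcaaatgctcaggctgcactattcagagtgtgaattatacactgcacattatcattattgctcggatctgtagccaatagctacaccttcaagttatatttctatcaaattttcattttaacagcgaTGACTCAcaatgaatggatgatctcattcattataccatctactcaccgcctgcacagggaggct

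In scaled counts, the Gal peak had 1.46 to 11.2 in the controls (median 4.57) and 43.1 and 27.3 with BDNF (log2 change 2.69 ± 0.44, adjusted p = 1e-06 in edgeR). The Dusp6 peak had 1.22 to 15.7 (median 5.57) against 42.5 and 30.7 (2.46 ± 0.44), the Synj2 peak 0.983 to 14.7 against 39.7 and 29.6 (2.17 ± 0.43) and the Kcnmb2 peak 2.04 to 12.5 against 35.1 and 32.1 (2.22 ± 0.43). All 4 were above every control in both libraries. Kcnmb2 mRNA rose from 48.1 to 82.3 to 133 and 163 (1.23 ± 0.16).

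RNA and nearby chromatin did not always move the same way. Cckbr, Dusp4 and Nptx1 rose in RNA with a closing peak within 20 kb (log2 changes of -1.40, -0.44 and -1.24), and Ptprk, Ryr3 and Thbs1 fell in RNA with a gained one (1.75, 1.37 and 1.41). Ephb1 and Rgs9 fell in both. The peaks of Dusp4, Nptx1 and Rgs9 lay on a start site. That of Dusp4, at 129 and 202 scaled counts against 185 to 263, overlapped its controls, as did that of Cckbr, at 17.7 and 7.18 against 9.67 to 42.5.

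**Figure D5:**
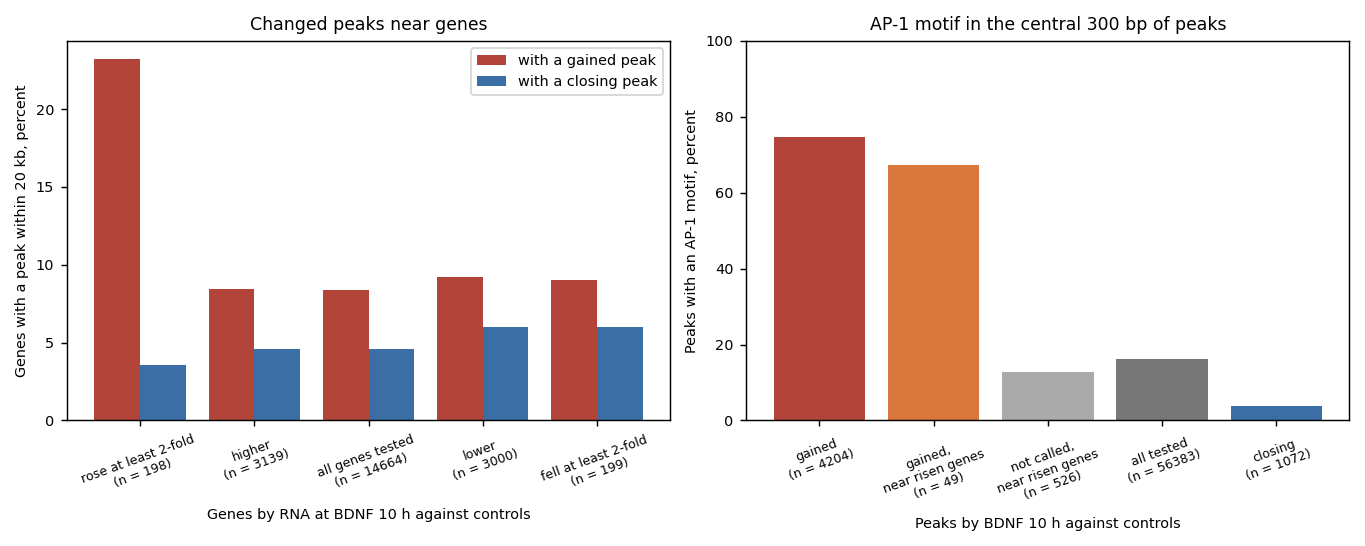
Left, percent of genes with a gained (red) or closing (blue) ATAC-seq peak within 20 kb, by RNA change at BDNF 10 h against controls; right, percent of peaks with the AP-1 motif in the central 300 bp, by peak class. Genes that rose at least 2-fold have a gained peak in 23.2% of cases against 8.41% of all, and gained peaks hold the motif in 74.7% against 16.3% of all.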

How the data were processed

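RNA-seq and ATAC-seq libraries came from silenced cortical neurons with or without BDNF or KCl, 2 per group. Per the labels and methods, RNA (oligo-dT, single-end) was aligned to mm10 with TopHat2 and counted over Gencode genes. The deposited RNA values are a signal, read counts divided by DESeq2 size factors by the authors, from which whole reads were recovered. The deposited ATAC values are counts per peak, made by the authors with bowtie2, MACS2 and DiffBind. Deposited fold changes and p-values were not used. The counting program and its use of strand are not given in the sources used here.

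RNA was tested with limma 3.58.1 (trend, robust) on log2(value + 1), with 7 levels over all 18 libraries, on the 16209 genes with a mean of at least 10. A Benjamini-Hochberg adjusted p below 0.1 was called, and fold changes of low genes are understated on this scale. Peaks were tested with edgeR 4.0.16 (quasi-likelihood, LOESS offsets), and scaled counts are counts divided by those offsets. Both fits were tested on simulated data. The labels do not say whether replicates are separate cultures, so p-values measure only the spread between these samples. Depth ranged from 8.51 M to 36.7 M reads in RNA and from 1.24 M to 6.24 M in ATAC.

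Named genes were the 12 largest rises and 12 largest falls against controls (called, protein-coding, mean of at least 100 in the higher group, no overlap), up to 4 called members of each list with a mean of at least 50, a set of landmark genes, and the 8 largest differences in each direction from BDNF 6 h. Members and lists were chosen with earlier results of these data known. Alternatives were other pseudocounts, filters, tools, scalings, control sets, thresholds, a replicate block and each library left out. Some genes and 1 gene list are not reported here.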

Additional observations from a re-analysis of the deposited data

Results flagged for a closer look

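In 7 of 164 genes looked at, 1 of the 6 controls stood apart from the other controls by Dixon's criterion. Chance meets it in about 1 of 20 groups, a share that 7 does not exceed, but genes of the same library are not independent. The library was control 10 h A for Adra1d, Klf10, Txnip and Bdnf, control 1 h A for Aars and Sv2c, and control 6 h B for Dusp6. The control was the highest for Dusp6 (288 normalized counts), Adra1d (16.8) and Aars (2210), and the lowest for Klf10 (193), Txnip (519), Bdnf (38.5) and Sv2c (90.6).

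Several genes moved in opposite directions from the controls with BDNF and KCl at 10 h, with a called difference between the stimuli in limma. On the log2 scale, BDNF exceeded KCl for Egr1 (3.64), Grp (3.18), Cbln1 (2.52), Shisa6 (1.91), Klf10 (1.89), Unc5b (1.58), Doc2b (1.51) and Gria1 (1.02). BDNF was below KCl for Scn1a (-2.75), Hapln1 (-2.47), Rem2 (-2.46), Ptprk (-2.06), Pcsk2 (-2.02), Kcnh4 (-1.93), Gabrb1 (-1.89), Mapk15 (-1.88) and Kcnj2 (-1.80). Smaller differences of that sign were those of Inhba (-1.50), Adamts3 (-1.24), Gucy1b1 (-1.05), Adcy1 (-0.99), Ntrk2 (-0.84) and Syt4 (-0.57). The calls of Inhba and Gucy1b1 against the controls were lost without either BDNF 10 h library, and that of Rem2 without B.

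Other genes were called on one side of the control mean at 1 h of BDNF and on the other at 10 h. The difference between 10 h and 1 h was positive for Pde1a (2.48) and Vav3 (1.67). It was negative for Rem2 (-3.46), Kcnj2 (-2.04), Bbc3 (-1.75), Inhba (-1.32), Prox1 (-0.97) and Tgfa (-0.96).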

How the results depend on the processing

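Of 155 named genes called against the controls none changed sign under the alternatives run, and at most 12 lost the call under any of them, 7 without BDNF library A and 10 without B. Of 15 named against BDNF 6 h, 10 to 15 lost it with 1 library left out. The balance of higher and lower calls turned without library A in the neurotrophin, voltage-gated potassium channel and presynaptic lists, and without B in the postsynaptic, other potassium channel and cyclic nucleotide lists. The count of genes called against the controls, 6583, was 4321 with the controls of 10 h only, 3201 at an adjusted p below 0.01, and 3642 to 6888 with 1 library left out, the lowest without BDNF library B. Against BDNF 6 h, the 35 calls became 18 with no filter on low values, 56 in edgeR with TMM, 55 in edgeR with the deposited scaling, 86 in DESeq2, 101 with only the samples compared, 7 at an adjusted p below 0.01, and 0 to 20 with 1 library left out. At an adjusted p below 0.01, 2571 genes were called against BDNF 1 h, 4161 against KCl 10 h and 2588 peaks against the controls. With 1 library left out these counts were 3670 to 4109, 5520 to 6265 and 2952 to 3834. The share of risen genes with a gained peak was 13.6% at an adjusted p below 0.01, against 4.35% of all genes, and 13.1% to 15.2% with a library left out. The share of fallen genes with a closing peak was 10.7% within 50 kb (8.27% of all genes), 0.503% at an adjusted p below 0.01 (0.511% of all) and 2.51% to 6.03% with a library left out. The letters A and B did not pair the samples uniformly. Over 36 pairs of groups the correlation of deviations ran from -0.31 to 0.42, with a median of 0.065, and 13 pairs exceeded 0.1. Between BDNF 10 h and the control groups it ran from -0.08 to 0.07. Shared handling within some letters cannot be told from these values. With the letter as a replicate block, 6821 genes were called against the controls and 43 against BDNF 6 h. With 2 libraries at this depth, small changes of low genes were not detectable.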

Other observations

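A few strong rises fell outside the rule for named genes, because of their low level, and were chosen after their values were seen. Galr1, a receptor for galanin, had 0 to 4.57 normalized counts in the 6 controls and 87 and 81.7 with BDNF at 10 h, against 28.9 and 29 at 1 h and 7.33 and 5.45 with KCl at 10 h. Its fitted change was 4.92 ± 0.47 (limma, adjusted p = 7.1e-08), so that a galanin receptor and the galanin precursor were both raised with BDNF.

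Ifi209 and Ifi203, neighbouring genes of the interferon-inducible p200 family on chromosome 1, rose while the list of interferon-stimulated genes did not. Ifi209 had 0 to 2.94 in the controls and 72.3 and 70.4 with BDNF (5.55 ± 0.53, limma, adjusted p = 5.7e-08). Ifi203 had 3.11 to 5.25 and 68.9 and 47.7 (3.47 ± 0.38, limma, adjusted p = 4.1e-07). Members of this family are similar in sequence, and how the counting shared their reads is not given.

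Crh, the peptide that Crhbp binds, had 0 to 3.92 in the controls, 32.8 and 29.5 with BDNF and 182 and 132 with KCl at 10 h. Its change with BDNF was 3.52 ± 0.79 (limma, adjusted p = 0.0038).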
